A study of Mus musculus with 6 samples.

Results

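Potassium channel subunit genes were examined in the infarcted mouse heart. The members were all genes of the deposited count table whose symbol begins with Kcn, except the noncoding Kcnq1ot1, with at least 10 reads summed over the 6 libraries. Of 99 such symbols, 67 genes were members, 66 of them protein coding and 1 (Kcnd3os) an antisense transcript, among 54532 genes in the table. Another 31 symbols stayed below 10 reads, 12 of them with 0 reads. The hearts came from C57BL/6 mice 8 to 10 weeks old, all taken at day 14 after myocardial infarction. One group was wild type (WT, 3 libraries) and the other lacked the atypical chemokine receptor ACKR4 (ACKR4_KO, 3 libraries), and no group without infarction is among the samples. How the knockout allele was made and which part of the heart was sampled are not stated in the labels.

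Potassium channels let potassium leave the cell and so set the resting potential and end the action potential. Voltage-gated (Kv) channels carry the repolarizing currents of the myocyte, inward rectifiers (Kir) hold its resting potential, and two-pore (K2P) channels carry background current. ATP-sensitive channels join a Kir pore to a sulfonylurea receptor and couple metabolism to excitability. In vascular smooth muscle, calcium-activated and ATP-sensitive channels relax the vessel when they open, and fibroblasts, endothelium and leukocytes carry channels of their own. Members were placed in classes from textbook knowledge, with earlier results of these data known. The classes held 20 myocyte, 6 smooth muscle and pericyte, 5 stromal, 2 endothelial and 4 immune genes, and 30 were in no class. Some members, such as Kcnk2 and Kcnn4, are known from cells of another class too.

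Libraries held between 9422462 and 13910358 reads, and the members together took 0.112% to 0.132% of them. Ackr4 had 165, 151 and 169 reads in WT and 4, 1 and 12 reads in ACKR4_KO, with an adjusted p of 0.099 by edgeR and 1.41e-18 by DESeq2. Levels are in CPM, the count relative to a library size scaled by TMM. Of the cardiomyocyte markers, the myosin gene Myh6 was at 7740 CPM or more in each library. The atrial myosin gene Myl7 was at 0.262 CPM or less in every library. Transcripts of lung epithelium (4 of 5 markers tested, all 4 lower in ACKR4_KO) summed to 37.0 to 223 CPM in WT and 0.323 to 1.83 CPM in ACKR4_KO, where Sftpc and Scgb1a1 were at 0 in all 3 libraries. Fast skeletal muscle markers summed to 85.2 and 110 CPM in WT replicates 2 and 3 and to 8.61 CPM or less in the other libraries. Xist stayed under 1 CPM on average in both groups (0.346 and 0.430 CPM) while the Y-linked Ddx3y averaged 65.4 and 67.2 CPM.

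Levels between genes were compared per length, as RPKM, which is CPM per kilobase of exon, averaged over the 6 libraries. The 5 highest members made up 62.3% of the summed RPKM of all 67, and 26 members reached 1 RPKM. Kcnk3, the pore of the background channel TASK-1, was highest at 52.0 RPKM. It was followed by Kcnip2 at 41.7 RPKM, the KChIP2 subunit that the fast transient outward current needs, and by Kcng2 at 37.6 RPKM, a silent Kv subunit that forms no channel alone. Kcnj11 and Kcnj8, the Kir6 pores of ATP-sensitive channels in myocytes and in mural cells, stood at 33.8 and 31.8 RPKM. Below them came Kcna5 at 23.8 RPKM, a pore of the slowly inactivating outward current of mouse ventricle, and Kcnh2 (ERG) at 12.6 RPKM. The most abundant stromal member was Kcne4 at 6.50 RPKM, a subunit that restrains Kv pores. The most abundant immune member was Kcnk6 at 3.65 RPKM, and the endothelial Kcnn3 and Kcne3 were at 0.469 and 0.449 RPKM. The 19 members too low to test had 10 to 59 reads in all and at most 0.260 RPKM, and 8 of them had a library with 0 reads.

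**Figure D1:**
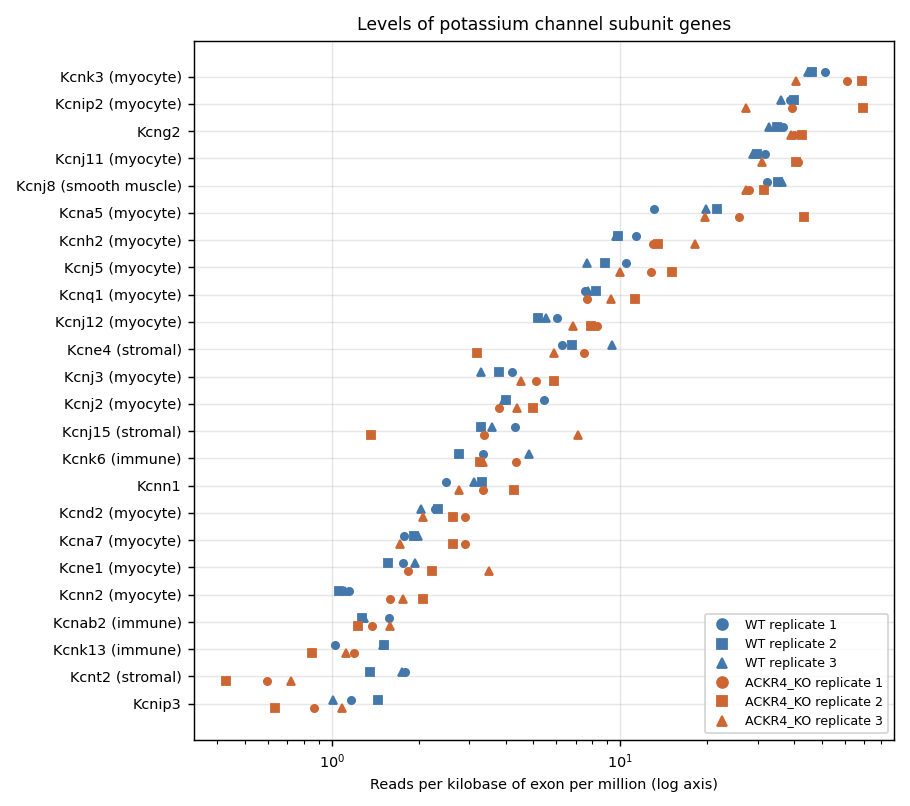
Levels of members with a mean of at least 1 RPKM, 1 point per library on a log axis, blue for WT and orange for ACKR4_KO, with the class in brackets. Kcnk3 leads at a mean of 52.0 RPKM, and ACKR4_KO replicate 2 lies apart from the other libraries in Kcnip2, Kcna5 and Kcnj15.

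The comparison of genotypes asked whether subunit genes differ between infarcted hearts with and without ACKR4. Of the 67 members, 48 passed the filter on low counts and were tested. By edgeR's quasi-likelihood test 0 of the 48 passed an adjusted p of 0.05, as did 0 of all 14406 genes (0%), and the smallest adjusted p of a member was 0.429. At an unadjusted p under 0.05 there were 6 members higher in ACKR4_KO (background over all genes 3.81%) and 2 lower (background 3.64%). Together these 8 are 16.7% of the tested members, against 7.45% of all genes. The higher ones were Kcnn2, Kcnh2, Kcnj12, Kcnj3, Kcnj5 and Kcnj11, all of the myocyte class, and the lower ones were the stromal Kcnt2 and the endothelial Kcnn3. The count was 5 of 50 tested without WT replicate 2, 5 of 49 without WT replicate 3 and 13 of 49 when ACKR4_KO replicate 3 was left out. The share over all genes was not counted in these settings. Among the members, DESeq2 called Kcnt2 alone, at an adjusted p of 0.000684, and called 0.234% of all genes to which it gave an adjusted p. CPM values of the groups did not overlap in 7 members higher in ACKR4_KO (14.6% of those tested, background 6.53%) and in 3 lower ones (6.25%, background 7.63%). By channel family, 15 of 16 tested Kv pores and 6 of 8 inward rectifiers had a log2 fold change above 0, where 52.0% of all genes did. Above 0 were also 2 of 5 two-pore channels, 3 of 7 calcium- or sodium-activated pores and 4 of 9 auxiliary subunits. Families and classes share genes, and many of the tested Kv pores and inward rectifiers are of the myocyte class.

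**Figure D2:**
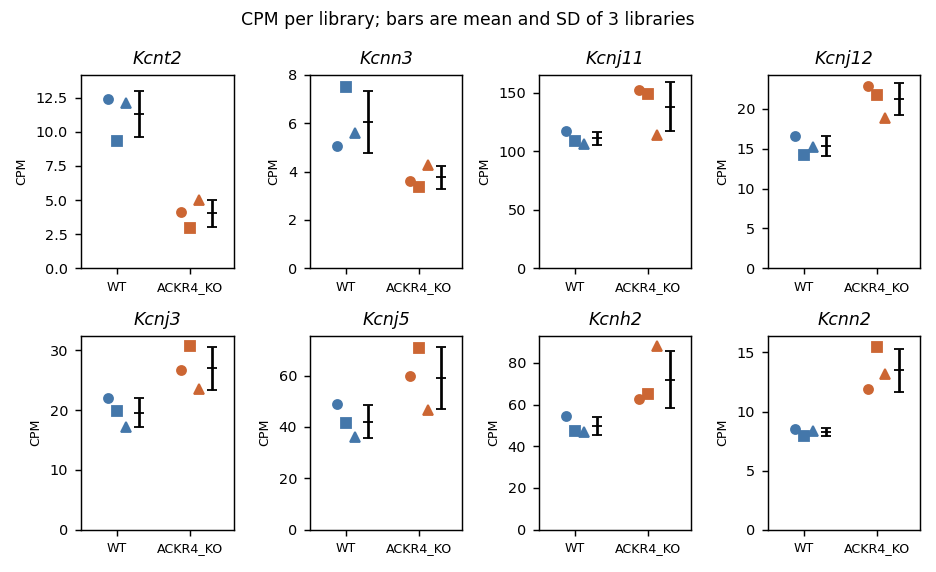
CPM in each library for the 8 members with an unadjusted p under 0.05, with circles, squares and triangles for replicates 1, 2 and 3 and black bars for the mean and SD of 3 libraries. Kcnt2 lies between 9.36 and 12.4 CPM in WT and between 2.97 and 4.98 CPM in ACKR4_KO, while ACKR4_KO replicate 3 of Kcnj11 and Kcnj5 reaches into the WT range.

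Kcnt2 had the smallest p of the members. It encodes Slick, a pore opened by intracellular sodium, and lies on chromosome 1 between 140246158 and 140612067 (plus strand, GRCm38). Its level was 12.4, 9.36 and 12.1 CPM in WT replicates 1, 2 and 3 and 4.12, 2.97 and 4.98 CPM in ACKR4_KO replicates 1, 2 and 3. All 3 ACKR4_KO libraries were below all WT libraries. The log2 fold change, ACKR4_KO minus WT throughout, was -1.49 with an SE (standard error) of 0.24, which is 2.80-fold lower (edgeR unadjusted p = 0.000183, adjusted p = 0.429). With every gene that had a read kept, edgeR gave Kcnt2 an adjusted p of 0.00328, and 24 of all genes passed in that setting. Over 15 alternatives the log2 fold change of Kcnt2 lay between -1.66 and -1.32. Fibroblast markers were lower too, in 7 of 7 genes with a median of -0.40 and Lum lowest at -0.67, and they summed to 8350 to 9460 CPM in WT and 5090 to 7960 CPM in ACKR4_KO. Without ACKR4_KO replicate 2 they were lower in 5 of 7 with a median of -0.21, and without ACKR4_KO replicate 1 or 3 the median was -0.61 or -0.66. In whole tissue, fewer cells of a type and less RNA per cell cannot be told apart. Per 100 reads of the fibroblast receptor Pdgfra, Kcnt2 had 9.80 to 12.5 reads in WT and 3.97 to 7.31 reads in ACKR4_KO, without overlap. Set against Lum the ranges were 2.04 to 3.10 and 1.15 to 1.82 reads, again without overlap, and set against Dcn they overlapped (0.548 to 0.817 and 0.261 to 0.702). Of the other fibroblast markers listed, the ranges also overlapped against Col1a1, Col1a2 and Gsn, and did not against Tcf21. The result thus depends on the marker used. The lung markers summed to 223, 37.0 and 108 CPM in WT replicates 1, 2 and 3, and their part in the Kcnt2 values was not tested.

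The other stromal members did not share this pattern of values. Over all 5 stromal genes, each tested, 2 were higher and 3 lower, with a median log2 fold change of -0.18, beside 0.012 over all genes. Kcne4 had 16.7, 18 and 24.9 CPM in WT and 19.9, 8.50 and 15.7 CPM in ACKR4_KO, and the groups overlapped. Its log2 fold change of -0.43 was -0.16 without ACKR4_KO replicate 2, -0.23 without WT replicate 3 and -0.71 without ACKR4_KO replicate 1. Kcnj15, a Kir4 pore, had 27.3, 20.8 and 22.7 CPM in WT and 21.2, 8.61 and 45.0 CPM in ACKR4_KO. Its lowest and its highest value were both in ACKR4_KO, so its log2 fold change of 0.083 had a standard error of 0.53. Kcnk2, the stretch-sensitive TREK-1 channel of fibroblasts and myocytes, had 4.90, 4.73 and 3.72 CPM in WT and 2.67, 4.10 and 8.47 CPM in ACKR4_KO. Kcnn4, the intermediate-conductance calcium-activated pore of fibroblasts and leukocytes, was at 5.13 ± 1.74 CPM in WT, against 4.47 ± 1.06 CPM in ACKR4_KO (mean ± SD, n = 3 each). As with the sum of the fibroblast markers, ACKR4_KO replicate 2 held the lowest value of Kcne4, Kcnj15, Kcnn4 and Kcnt2. The stromal median was -0.36 without WT replicate 1, -0.00048 without WT replicate 2, -0.019 without ACKR4_KO replicate 2 and -0.47 without ACKR4_KO replicate 3.

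Genes of the myocyte class were mostly higher in ACKR4_KO. Of 18 tested, 17 had a log2 fold change above 0, where 52.0% of all genes did, and the class median was 0.40. Of the 18 tested, 6 were higher at an unadjusted p under 0.05 (33.3%, background over all genes 3.81%). The groups did not overlap in 4, all higher (22.2%, background 6.53%). Without ACKR4_KO replicate 2 there were 16 of 18 above 0, with a median of 0.34. The count at an unadjusted p under 0.05 was 3 without WT replicate 3 and 11 without ACKR4_KO replicate 3. The share over all genes was not counted in either setting. Markers of the cardiomyocyte were higher by a like amount, 8 of 8 with a median of 0.42, and summed to 28900 to 36700 CPM in WT and 38100 to 53200 CPM in ACKR4_KO. The part of this difference in the channel values was not tested. Per 100 reads of Ryr2, the groups overlapped in Kcnh2, Kcnj12, Kcnj3, Kcnj5, Kcnj11 and Kcna5, and Kcnj12 for one had 2.95 ± 0.179 reads in WT and 2.97 ± 0.48 in ACKR4_KO (mean ± SD, n = 3 each). Ryr2 was chosen after its values were seen. Of the 8 markers it alone had an unadjusted p under 0.05 by edgeR (log2 fold change 0.47). Per 100 reads of Tnnt2 the groups overlapped in Kcnh2, Kcnj12, Kcnj3, Kcnj5 and Kcnj11 too. Set against Pln, with a log2 fold change of 0.15, Kcnj3 and Kcnj5 were higher in ACKR4_KO without overlap, and the others named here overlapped.

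**Figure D3:**
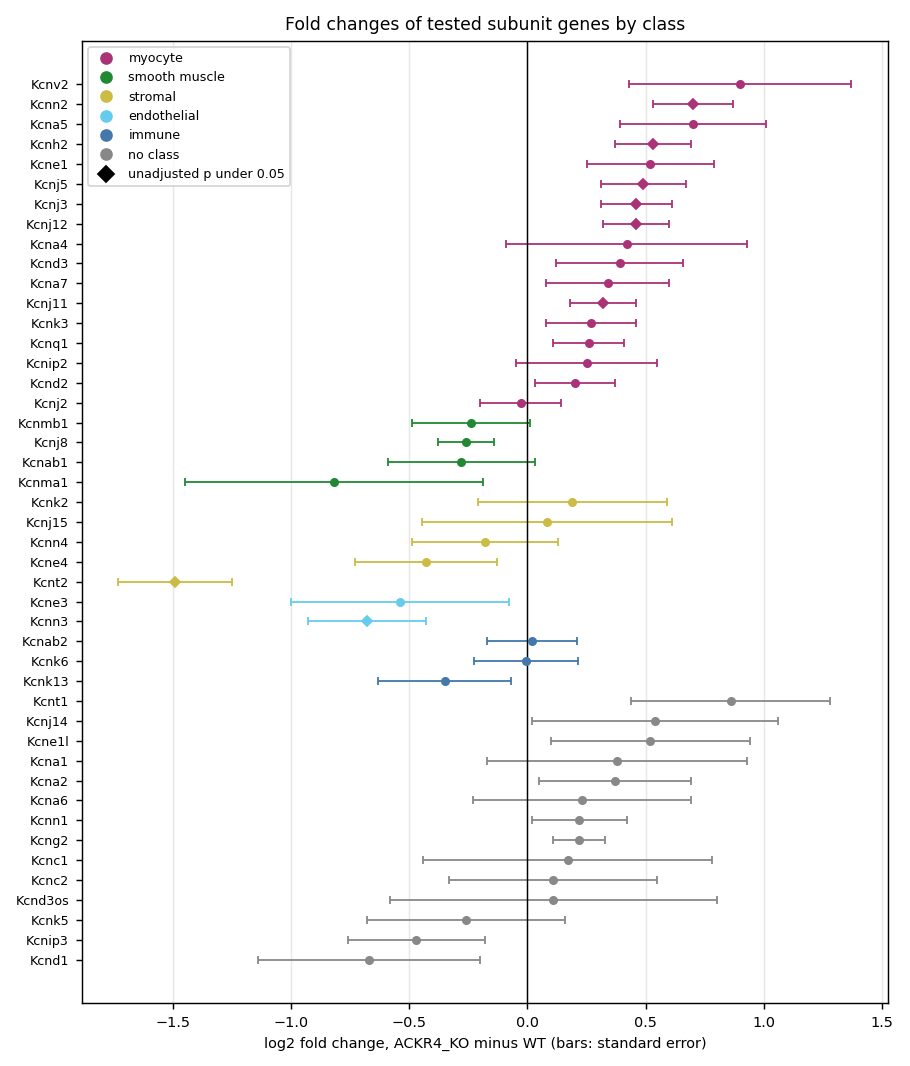
Log2 fold change (ACKR4_KO minus WT) with its standard error for tested members, coloured by class, with diamonds for an unadjusted p under 0.05. The myocyte genes drawn lie above 0 except Kcnj2, Kcnt2 lies apart from all others at -1.49, and none passed edgeR's test after adjustment over all genes.

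Kcnn2 encodes SK2, a small-conductance channel opened by calcium, and lies on chromosome 18 between 45268860 and 45686024 (plus strand). It was at 8.56, 7.92 and 8.33 CPM in WT and at 11.9, 15.5 and 13.2 CPM in ACKR4_KO. Each ACKR4_KO library was above each WT library, and the log2 fold change was 0.70 (SE 0.17, edgeR unadjusted p = 0.00239, adjusted p = 0.606). Per 100 reads of the myocyte calcium release channel Ryr2, Kcnn2 had 1.55 to 1.62 reads in WT and 1.69 to 2.25 in ACKR4_KO, without overlap. Per 100 reads of Tnnt2 the values overlapped, at 0.179 to 0.231 and 0.224 to 0.273.

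Kcnh2 (chromosome 5, 24319589 to 24351604, minus strand), the pore of the rapid delayed rectifier, was at 54.7, 47.5 and 46.9 CPM in WT and at 62.9, 65.2 and 87.9 CPM in ACKR4_KO. The groups did not overlap, and replicate 3 was the highest. Its log2 fold change was 0.53 (SE 0.16, edgeR unadjusted p = 0.0079, adjusted p = 0.606). Set against Ryr2 it was at 9.56 ± 0.824 reads per 100 in WT and 9.97 ± 1.13 in ACKR4_KO (mean ± SD, n = 3 each), a difference smaller than either SD. Of the slow delayed rectifier, the pore Kcnq1 was at 32.0 ± 1.53 and 38.4 ± 7.35 CPM, and its partner Kcne1 had 5.68, 5.04 and 6.27 CPM in WT and 5.90, 7.17 and 11.3 CPM in ACKR4_KO. Replicate 3 was thus the highest ACKR4_KO library for Kcne1 as for Kcnh2, and the Kcne1 groups overlapped. Kcnq1 shares 121 of its 4093 exonic bases with Kcnq1ot1 on the opposite strand. The strand setting of the counting is not given. Whether reads within those bases were counted for the right gene, the other gene or neither is thus not known. Kcnt2, Kcnn2 and Kcnj3 share 102, 607 and 1621 exonic bases with genes on the opposite strand, and the same limit holds within those bases.

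The inward rectifiers of the resting potential are carried by Kir2 pores. Kcnj12 (Kir2.2; chromosome 11, 61022564 to 61071131, plus strand) was at 16.6, 14.2 and 15.2 CPM in WT and 22.9, 21.7 and 18.9 CPM in ACKR4_KO, with no overlap and a log2 fold change of 0.46 (standard error 0.14, edgeR unadjusted p = 0.00935, adjusted p = 0.611). Kcnj2 (Kir2.1) was at 29.6, 21.9 and 21.5 CPM in WT and 20.7, 27.1 and 23.9 CPM in ACKR4_KO, and was the 1 myocyte gene with a log2 fold change below 0, at -0.029 with a standard error of 0.17. Within a library, Kcnj2 had 0.897, 0.780 and 0.716 times the reads per kilobase of Kcnj12 in WT. In ACKR4_KO the ratio was 0.457, 0.629 and 0.638, below every WT library.

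Kcnj3 and Kcnj5 form the channel that acetylcholine opens through the muscarinic receptor, best known from atria and nodes. They lie on chromosome 2 (55435970 to 55598145, plus strand) and chromosome 9 (32314707 to 32344350, minus strand). Kcnj5 was at 48.9, 41.5 and 35.9 CPM in WT and 59.8, 70.8 and 46.6 CPM in ACKR4_KO, with WT replicate 1 above ACKR4_KO replicate 3. Its log2 fold change was 0.49 (SE 0.18, edgeR unadjusted p = 0.0246, adjusted p = 0.661). Kcnj3 was at 22.0, 19.8 and 17.1 CPM in WT and 26.7, 30.8 and 23.6 CPM in ACKR4_KO, without overlap, and its log2 fold change was 0.46 (standard error 0.15, edgeR unadjusted p = 0.0148, adjusted p = 0.661). The partners kept a near constant proportion, with a Kcnj3 to Kcnj5 ratio of 0.420 ± 0.0136 in WT and 0.416 ± 0.0338 in ACKR4_KO per kilobase. Of the 4 atrial genes listed, Myl7 had 0 reads in 2 WT libraries, Sln was at 2.62 CPM or less and Myl4 at 1.24 to 10.5 CPM. Nppa, which the stressed ventricle expresses too, was at 656 to 790 CPM in WT and 234 to 1060 CPM in ACKR4_KO.

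Genes of the transient outward and slowly inactivating Kv currents varied between ACKR4_KO libraries. Kcnip2 was at 134, 139 and 125 CPM in WT and at 137, 240 and 95.0 CPM in ACKR4_KO, so the highest and the lowest value were both in ACKR4_KO. Its log2 fold change was 0.25 (SE 0.30), and -0.19 without ACKR4_KO replicate 2. The Kv4 pores it joins, Kcnd2 and Kcnd3, had log2 fold changes of 0.20 and 0.39, with overlapping groups. The ratio of Kcnip2 to the summed pores per kilobase was 11.5, 13.3 and 13.4 in WT and 9.32, 19.2 and 9.35 in ACKR4_KO. Kcna5 was at 37.3, 61.8 and 56.6 CPM in WT and 73.7, 124 and 56.1 CPM in ACKR4_KO, giving a log2 fold change of 0.70 (SE 0.31), and replicate 3 lay within the WT range. The silent subunit Kcnv2 had the highest fitted value of the class, 0.90 with a standard error of 0.47, at 2.25 ± 0.615 CPM in WT, against 4.27 ± 2.33 CPM in ACKR4_KO. Kcna4 had 0.42, Kcna7 0.34 and Kcnk3 0.27 as log2 fold change, all with overlapping groups. In Kcnip2, Kcna5, Kcnv2 and Kcnk3, ACKR4_KO replicate 2 was the highest of the 6 libraries. Without it the log2 fold change was 0.33 for Kcna5 and 0.11 for Kcnk3.

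Klf15, a transcription factor known in mouse heart to drive the daily rhythm of Kcnip2, was at 35.9, 43.5 and 35.2 CPM in WT and 71.2, 78.7 and 43.1 CPM in ACKR4_KO. WT replicate 2 was slightly above ACKR4_KO replicate 3, and the log2 fold change was 0.75 (SE 0.22, edgeR unadjusted p = 0.00793, adjusted p = 0.606). Of 8 regulators of cardiac channel genes, 5 were higher and 3 lower with a median of 0.07, and Klf15 alone had an unadjusted p under 0.05. Irx3, a repressor in the conduction system and the second highest of the list per length, was at 35.2 ± 2.5 and 46.8 ± 22.7 CPM, with ACKR4_KO replicate 3 highest at 72.5 CPM.

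ATP-sensitive channels were the group in which myocyte and vascular pores could be set side by side. Kcnj11 (Kir6.2; chromosome 7, 46093953 to 46100764, minus strand) was at 117, 109 and 106 CPM in WT and 152, 149 and 114 CPM in ACKR4_KO, giving a log2 fold change of 0.32 (SE 0.14, edgeR unadjusted p = 0.0488, adjusted p = 0.666). ACKR4_KO replicate 3 lay within the WT range. Kcnj8 (Kir6.1; chromosome 6, 142564837 to 142571614, minus strand) was at 82.3, 89.7 and 92.4 CPM in WT and 71.3, 80.3 and 69.6 CPM in ACKR4_KO, without overlap. Its log2 fold change was -0.26 (SE 0.12, edgeR unadjusted p = 0.0547, adjusted p = 0.672). The ratio of Kcnj11 to Kcnj8 per kilobase was 0.982, 0.839 and 0.797 in WT and 1.47, 1.28 and 1.14 in ACKR4_KO, higher in every ACKR4_KO library. It sets a myocyte gene against a mural cell gene, so the mix of cells and the RNA per cell cannot be told apart. Per 100 reads of Ryr2, Kcnj11 had 21.3 ± 1.34 reads in WT and 19.5 ± 4.21 in ACKR4_KO, with overlap. The sulfonylurea receptor genes are the pores' partners. Abcc8 was at 23.7, 22.7 and 23.6 CPM in WT and 31.9, 31.4 and 26.3 CPM in ACKR4_KO, without overlap, with a log2 fold change of 0.35 (standard error 0.12, edgeR unadjusted p = 0.0189, adjusted p = 0.661). Abcc9, which partners pores in myocytes and mural cells alike, was at 291 ± 31.5 and 302 ± 73.8 CPM, and the pacemaker channel gene Hcn2 at 32.4 ± 5.18 and 30.3 ± 10.4 CPM. Of the 14 partner genes 8 were tested, 5 higher and 3 lower with a median of 0.053, and Abcc8 alone had an unadjusted p under 0.05.

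**Figure D4:**
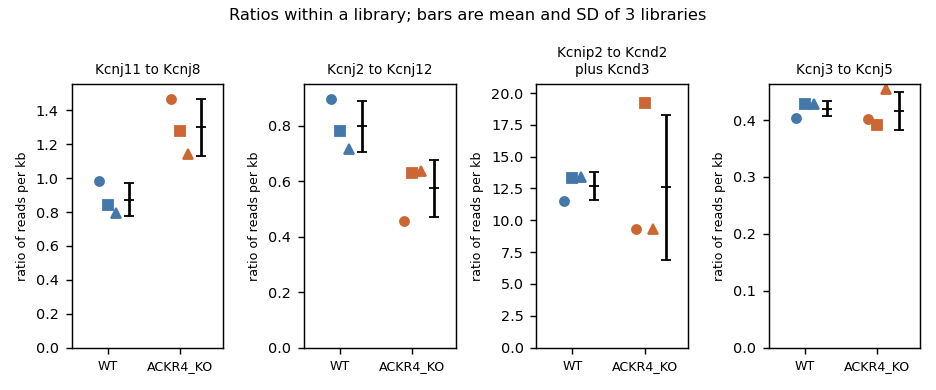
Ratios of reads per kilobase between subunit genes within each library, with black bars for mean and SD of 3 libraries per genotype. The Kcnj11 to Kcnj8 ratio is higher and the Kcnj2 to Kcnj12 ratio lower in all 3 ACKR4_KO libraries, whereas Kcnj3 to Kcnj5 stays near 0.42 in both groups. Kcnj11 is a myocyte and Kcnj8 a mural cell gene, so their ratio also depends on the mix of cells.

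Smooth muscle and pericyte genes were lower in 4 of 5 tested, median -0.26 on the log2 scale, and none reached an unadjusted p under 0.05. The lower ones were Kcnj8, Kcnma1 (the pore of the large-conductance calcium-activated channel), its smooth muscle subunit Kcnmb1 and the auxiliary subunit Kcnab1. Kcnma1 was at 3.27, 2.37 and 5.65 CPM in WT and 2.26, 0.410 and 3.67 CPM in ACKR4_KO, giving a log2 fold change of -0.82 (SE 0.63). ACKR4_KO replicate 2 held 4 reads of it, the lowest, and the groups overlapped. The log2 fold change was -0.36 without that library, -0.40 without WT replicate 3 and -1.45 without ACKR4_KO replicate 3. Kcnmb1 was at 4.36, 4.32 and 4.06 CPM in WT and 2.83, 3.79 and 4.19 CPM in ACKR4_KO. Kcnab1 was at 2.80 ± 0.468 and 2.32 ± 0.426 CPM, with a log2 fold change of -0.28. Pericyte markers were lower in 5 of 6 genes (median -0.28), with Pdgfrb and Vtn both at -0.46 and unadjusted p of 0.038 and 0.032 by edgeR's test (adjusted p = 0.661 for both). They summed to 1450 to 1720 CPM in WT and 1120 to 1370 CPM in ACKR4_KO. Smooth muscle markers were lower in 4 of 6 (median -0.22), and their sum, mostly Des, was 2030 to 2720 and 2090 to 3100 CPM. Per 100 reads of the pericyte gene Rgs5, Kcnj8 had 7.88 ± 0.287 reads in WT and 8.58 ± 1.29 in ACKR4_KO, with overlap.

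**Figure D5:**
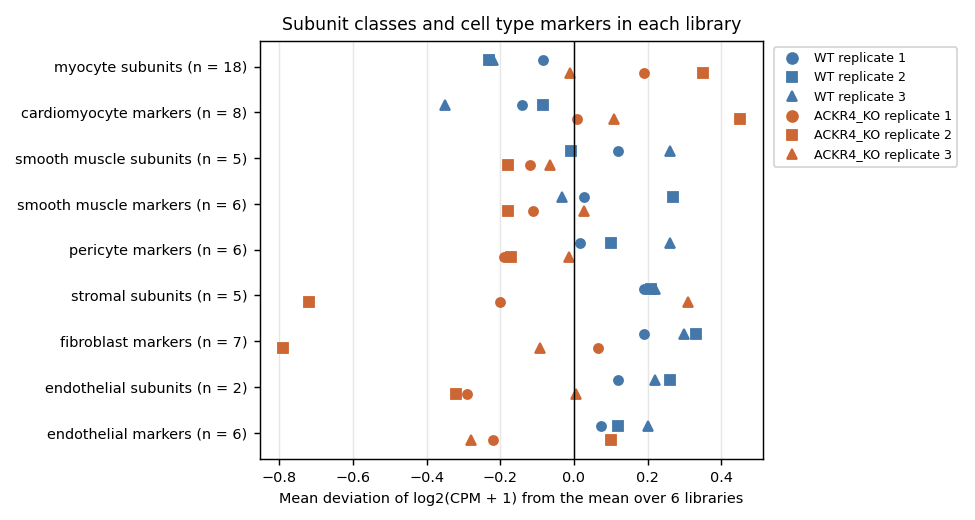
Mean deviation of log2(CPM + 1) from the mean over the 6 libraries for the tested genes of each subunit class and of the matching marker list, 1 point per library. Myocyte subunits run from -0.23 to -0.085 in WT and from -0.01 to 0.35 in ACKR4_KO, and the cardiomyocyte markers from -0.35 to -0.084 and from 0.0075 to 0.45. Stromal subunits and fibroblast markers both have their lowest value in ACKR4_KO replicate 2 (-0.72 and -0.79). In ACKR4_KO replicate 3 they part: stromal subunits have their highest value there (0.31), and fibroblast markers are at -0.091, below the WT range of 0.19 to 0.33.

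The endothelial Kcnn3 encodes SK3, a small-conductance channel that takes part in endothelial hyperpolarization, and lies on chromosome 3 between 89520164 and 89675132 (plus strand). It was at 5.06, 7.51 and 5.58 CPM in WT and 3.63, 3.38 and 4.28 CPM in ACKR4_KO, and the groups did not overlap. The log2 fold change was -0.68 (SE 0.25, edgeR unadjusted p = 0.0243, adjusted p = 0.661). Endothelial markers were lower in 6 of 6 genes (median -0.23) and summed to 1680 to 1860 CPM in WT and 1320 to 1690 CPM in ACKR4_KO. Set against the endothelial cadherin Cdh5, Kcnn3 had 1.14 to 1.74 reads per 100 in WT and 0.776 to 1.15 in ACKR4_KO, with overlap. Kcne3, an auxiliary subunit, was at 0.944 ± 0.199 and 0.652 ± 0.267 CPM, with a log2 fold change of -0.54.

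Immune members showed no shared direction. Of 3 tested, Kcnk6 and Kcnab2 had log2 fold changes of -0.0046 (0.00086 with RLE scaling) and 0.02, and Kcnk13, a two-pore channel of macrophages and microglia, had -0.35 with a standard error of 0.28. Kcnk13 was at 4.20 ± 0.877 CPM in WT, against 3.29 ± 0.554 CPM in ACKR4_KO. Kcna3, the Kv1 pore of T cells, had 2 to 9 reads per library and was not tested. Macrophage markers were lower in 6 of 6 genes (median -0.17), all with overlapping groups. They summed to 1160, 1510 and 1410 CPM in WT and 1360, 887 and 1170 CPM in ACKR4_KO, lowest in ACKR4_KO replicate 2. Of 6 lymphocyte markers 4 were tested, 3 lower and 1 higher (median -1.33). Of these the T cell genes Cd3g and Cd8a, at mean levels of 3.29 CPM or less, had log2 fold changes of -2.09 and -1.79 (edgeR unadjusted p = 0.0101 and 0.00722, adjusted p = 0.611 and 0.606).

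Among the 30 members of no class, 15 were tested, 12 higher and 3 lower with a median of 0.22, and none had an unadjusted p under 0.05. The groups did not overlap in 3 of them, all higher in ACKR4_KO (20% of those tested, background over all genes 6.53%). These include Kcng2 and Kcnt1, which are named after their values were seen. Kcng2 was at 109, 104 and 98.2 CPM in WT and 119, 127 and 117 CPM in ACKR4_KO, giving a log2 fold change of 0.22 (SE 0.11). Kcnt1, the Slack paralog of Kcnt2, was at 0.467, 0.514 and 0.758 CPM in WT and 1.13, 1.13 and 0.960 CPM in ACKR4_KO, from 5 to 14 reads per library. Its log2 fold change of 0.86 (SE 0.42, edgeR unadjusted p = 0.0707, adjusted p = 0.682) had the opposite sign to that of Kcnt2.

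The RefSeq promoter windows (GRCm38.p6, 250 bases before to 50 after the start) are given for members with an unadjusted p under 0.05 and no overlap between groups. An entry was found for 49 of the 67 members. Of the 6 members that meet this rule, 5 are given here, with 1 window each. None is given for Kcnn2, which does not show that RefSeq lacks an entry for it. The RefSeq start used for the Kcnj3 and Kcnn3 windows is the gene start given above. The Kcnt2 window lies upstream of it, and the Kcnh2 and Kcnj12 windows lie inside the gene, at internal starts. Capitals mark CCAAT, the box bound by NF-Y, on either strand (ATTGG on the opposite one). It is present in 37.4% of all 32851 windows and in 25 of 72 windows (34.7%) of member genes. The windows are chr1:140245468-140245767 on the plus strand for Kcnt2, chr3:89519914-89520213 on the plus strand for Kcnn3, chr5:24329542-24329841 on the minus strand for Kcnh2, chr11:61065554-61065853 on the plus strand for Kcnj12 and chr2:55435720-55436019 on the plus strand for Kcnj3.
Kcnt2: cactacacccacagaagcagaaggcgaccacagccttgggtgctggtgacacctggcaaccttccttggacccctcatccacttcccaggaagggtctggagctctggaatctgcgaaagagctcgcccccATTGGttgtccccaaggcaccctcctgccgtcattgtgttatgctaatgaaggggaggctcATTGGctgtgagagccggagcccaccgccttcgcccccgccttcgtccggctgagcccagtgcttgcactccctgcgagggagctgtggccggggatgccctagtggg
Kcnn3: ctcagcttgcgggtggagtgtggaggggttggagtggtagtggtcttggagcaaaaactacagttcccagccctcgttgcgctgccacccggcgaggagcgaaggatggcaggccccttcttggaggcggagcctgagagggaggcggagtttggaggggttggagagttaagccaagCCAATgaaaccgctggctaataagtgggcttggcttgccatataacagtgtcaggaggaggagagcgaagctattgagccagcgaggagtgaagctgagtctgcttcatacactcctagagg
Kcnh2: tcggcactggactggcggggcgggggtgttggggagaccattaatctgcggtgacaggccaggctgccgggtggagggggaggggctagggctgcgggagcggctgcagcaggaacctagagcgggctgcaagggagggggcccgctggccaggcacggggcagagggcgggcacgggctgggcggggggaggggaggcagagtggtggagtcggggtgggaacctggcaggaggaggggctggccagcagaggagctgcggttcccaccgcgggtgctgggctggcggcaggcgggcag
Kcnj12: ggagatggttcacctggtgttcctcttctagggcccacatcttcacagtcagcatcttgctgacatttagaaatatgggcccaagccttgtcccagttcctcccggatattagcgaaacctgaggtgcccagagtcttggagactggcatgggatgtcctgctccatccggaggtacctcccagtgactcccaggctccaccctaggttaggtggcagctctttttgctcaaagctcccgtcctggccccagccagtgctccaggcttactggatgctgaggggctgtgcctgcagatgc
Kcnj3: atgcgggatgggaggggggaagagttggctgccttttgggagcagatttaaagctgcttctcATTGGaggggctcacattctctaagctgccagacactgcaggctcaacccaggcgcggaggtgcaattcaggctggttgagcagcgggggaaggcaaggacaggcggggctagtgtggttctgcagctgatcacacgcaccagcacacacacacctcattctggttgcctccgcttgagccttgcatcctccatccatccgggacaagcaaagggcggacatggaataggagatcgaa
The Kcnt2 window held 2 matches, the Kcnn3 and Kcnj3 windows 1 each, and those at the internal starts of Kcnh2 and Kcnj12 held 0. A link between matches and the direction of change was not tested. The Kcnh2 window had the highest GC content of the 5, at 74.3%, where the median was 52.7% for all windows and 58% for windows of member genes.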

How the data were processed

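Per the submitters' processing notes, the authors used CASAVA 1.8.2, HISAT2 and HTSeq 0.6.0 with mouse build mm10. The deposited table holds raw counts of reads per gene, 1 column per library, made from 1 ug of total RNA. Neither the annotation release nor the strand setting is stated there. Exons of 23 members overlap a gene on the opposite strand, and how reads within the shared bases were counted, or whether they were lost, is not known. Libraries ranged from 9422462 to 13910358 reads. No source says that libraries of a group came from separate animals, so p-values measure the spread between these libraries. Symbols were found for 54409 of 54532 genes. Coordinates and exonic lengths came from GENCODE M21 on GRCm38, the assembly of mm10.

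Genes were filtered with filterByExpr (minimum count 10, total 15) in edgeR 4.0.16 under R 4.3.3, which left 14406 genes, and library sizes were scaled by TMM (factors 0.891 to 1.05). Genotype was tested, two-sided, by the robust quasi-likelihood method of edgeR, checked on simulated data. P-values were adjusted by Benjamini-Hochberg over the 14406 genes, with 0.05 as threshold. The standard error is the log2 fold change over the square root of F. DESeq2 1.42.0, limma-voom (limma 3.58.1) and other settings were alternatives. The members, classes and lists were chosen with earlier results of these data known. By rule, the text names Ackr4, tested members with an adjusted p under 0.05 in edgeR or DESeq2 or an unadjusted p under 0.05 in edgeR, the 5 with the highest RPKM of each class, and partners, regulators and markers with an unadjusted p under 0.05 or among the 2 highest of their list. Markers are mostly given as lists. Other genes named, and the ratios to marker genes, were chosen after their values were seen. Some members that enter the counts are not reported here by name and are not drawn in the figures.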

Additional observations from a re-analysis of the deposited data

How the results depend on the processing

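Adjusted p-values over all genes left 0 members in edgeR's main test. Kcnt2 was the 1 member called by DESeq2 and by edgeR with no filter on low counts, settings that called 41 and 24 of all genes. Leaving out a library in turn gave 0 in every case, while the members at an unadjusted p under 0.05 ranged from 5 to 13. The share of all genes at that p was counted in the main fit only. The targeted gene Ackr4 had a log2 fold change between -5.82 and -4.28 with a library left out. Its adjusted p of 0.099 by edgeR became 1.41e-18 by DESeq2 (log2 fold change -4.73), 8.58e-05 with no filter on low counts (-4.70) and 0.00331 without ACKR4_KO replicate 3. It was 0.325 by limma-voom, 0.27 without WT replicate 2 and 0.84 without WT replicate 3, the highest of the 15 alternatives. The medians of the myocyte, smooth muscle and stromal classes kept their sign in all settings run, and with a library left out they ranged from 0.33 to 0.52, from -0.32 to -0.21 and from -0.47 to -0.00048. With Kcnk2 moved to the myocyte class the stromal median was -0.31. The log2 ratio of ACKR4_KO to WT means ranged from -0.45 to 0.17 for Kcnip2 over its pores and from -0.11 to 2.02 for Kcnmb1 over Kcnma1, and ACKR4_KO replicate 2 set the low end of both. Direction turned in 6 genes named, none of them with an unadjusted p under 0.05. For Kcnk6 it turned with RLE factors (0.00086), limma-voom (0.0024) and the replicate block (0.02), and for Kcnj15 with limma-voom (-0.18) and the replicate block (-0.16). With a library left out, the extremes were -0.16 and 0.25 for Kcnk6, -0.64 and 0.49 for Kcnj15, -0.19 and 0.51 for Kcnip2, -0.40 and 0.51 for Kcnk2, -0.36 and 0.11 for Kcnn4 and -0.079 and 0.13 for Kcnab2. The cause of these turns was not tested. Same-numbered libraries had correlations of deviations of 0.0665, 0.0527 and 0.125, so the numbers were not taken as pairs, and ACKR4_KO replicate 2 correlated more with WT replicate 1 than with WT replicate 2. With the replicate block 8 members had an unadjusted p under 0.05 and 0 passed after adjustment, where 6 of all genes did. Libraries of ACKR4_KO varied more (biological coefficient of variation 26.7%) than those of WT (11.7%). In the shallowest library, WT replicate 2, 3 reads equal 0.309 CPM. Values of members near that level rest on a few reads, and differences between them could not be judged at this depth.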
